A study of Mus musculus with 24 samples.

Results

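The expression of 9 genes of neural progenitors and of Notch signaling (*Sox2*, *Sox9*, *Pax6*, *Hes1*, *Hes5*, *Fabp7*, *Prom1*, *Msi1* and *Notch1*) was followed in primary murine astrocytes after exposure to X-rays. The genes were chosen by name, as transcription factors, surface and cytosolic markers and Notch pathway genes that are used to recognize neural stem and progenitor cells, and all 9 were found among the 49315 genes of the count data. The astrocytes came from the cortex of wild type C57BL/6J mouse embryos, where the cells of all embryos of one pregnant mouse were pooled, and they were used after the first passage. Cells were mock-irradiated (0 Gy) or exposed to 0.1 or 2 Gy of 200 kV X-rays, and RNA was harvested 6 h or 24 h later. This gave 6 groups of 4 libraries, 24 in all, with the replicate numbers 1 to 4 in each group. The questions were whether the 9 genes changed with dose and whether they differed between the 2 harvest times.

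During cortical development, radial glia act as the neural stem cells, produce neurons first and astrocytes later, and pass many of their genes on to the astrocytes. Notch is a receptor that is cut after it meets a ligand of the Delta or Jagged family on a neighboring cell. The freed part of the receptor enters the nucleus, binds the DNA-binding protein RBPJ and switches on repressors of the Hes and Hey families, which hold back neuronal differentiation. Sox2, Sox9 and Pax6 are transcription factors of the progenitor state, Msi1 is an RNA-binding protein that counts the Notch inhibitor Numb among its targets, Fabp7 is a fatty acid carrier of radial glia, and Prom1 (CD133) is a membrane protein used to sort stem cells.

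The cells carried most of the markers of astrocytes. Of the 12 astrocyte markers, *Glul*, *Gfap* and *Aqp4* were the highest per length. *Slc1a2* and *S100b* were low, with means of 3.85 and 1.90 RPKM, and *Gjb6* had at most 11 counts in a library. The 14 markers of neurons and neuroblasts were uneven. *Stmn2*, *Tubb3* and *Map2*, genes of the cytoskeleton, had 38.2, 36.3 and 13.6 RPKM (counts normalized by gene length and library depth) on average, while the other 11 were at most 0.386 RPKM, among them *Rbfox3*, *Snap25* and *Dcx* with at most 25, 36 and 37 counts in a library. Markers of other cells were detected as well. The summed level of 10 fibroblast and vessel markers, most of it *Acta2*, lay between 3520 and 7831 CPM (counts scaled to a common depth, by TMM normalization of the library totals), and that of the 12 astrocyte markers between 2440 and 3539 CPM. Of the 10, *Acta2*, *Col1a1*, *Col1a2* and *Pdgfrb* were at 11.6 RPKM or more on average and the other 6 at 0.745 RPKM or less, with *Cldn5*, a marker of the vessel wall, at 0 in 21 libraries. The sum of 10 microglia markers had group medians from 1650 to 2068 CPM and reached 2488 CPM. It was between 222 and 260 CPM in the 6 libraries with the number 2, below every other library of their groups. The microglia markers *C1qa* and *C1qb* had means of 296 and 259 RPKM, above *Glul* (165 RPKM). *Olig1*, of the oligodendrocyte lineage, had 146 RPKM, above *Gfap* (123 RPKM). Same-numbered libraries differed from their group means in like ways (r across genes of at least 0.255), apart from the number 3 between 6 h and 24 h at 0 Gy (r = 0.0645), and values with the number as a block or without the number 3 are given where they changed a call. No source used here names the cultures of each library, so p-values measure the spread between these libraries. Total counts ranged from 14742855 to 38194800 per library. In such bulk RNA, a change in the share of a cell type and a change in the RNA of each cell cannot be told apart.

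The promoters of *Hes5* and *Pax6* are shown for different reasons. *Hes5*, whose window held the most matches to the RBPJ core motif of those found, was almost silent. *Pax6* had the largest fitted fold change between harvest times of the 8 genes that passed the filter on low counts. The windows cover the 250 bases before the RefSeq start of each gene on build GRCm38.p6. The *Hes5* window lies at chr4:154960673-154960922 and the *Pax6* window at chr2:105668646-105668895, both on the plus strand. The *Hes5* window overlaps no exon of *Hes5*, but one of *Gm20421*, a transcript of the other strand, and the *Pax6* window overlaps no annotated exon. Capitals mark the RBPJ core motif TGGGAA or its reverse complement TTCCCA.
Hes5: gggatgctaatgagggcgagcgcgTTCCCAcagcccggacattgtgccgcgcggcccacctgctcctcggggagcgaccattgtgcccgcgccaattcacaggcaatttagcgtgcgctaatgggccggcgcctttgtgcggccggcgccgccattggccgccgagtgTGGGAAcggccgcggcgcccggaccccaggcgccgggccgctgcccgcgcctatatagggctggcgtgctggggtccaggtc
Pax6: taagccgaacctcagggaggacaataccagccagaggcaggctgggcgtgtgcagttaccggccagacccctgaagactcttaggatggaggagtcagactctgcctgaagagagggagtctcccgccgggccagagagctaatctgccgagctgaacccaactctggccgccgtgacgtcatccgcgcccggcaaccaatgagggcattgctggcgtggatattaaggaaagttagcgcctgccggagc

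In the *Hes5* window the motif occurred 2 times, once on each strand, with its first base at -226 and at -82 from the start, whereas the printed *Pax6* window held no match. Windows were found for 6 of the 9 genes (8 windows, since *Pax6* and *Prom1* have 2 each), and the motif occurred once in those of *Fabp7* and of *Prom1* (first base at -249 and -116) and not in those of *Sox2* and *Notch1*. Of all 32851 promoter windows of this length, 21.6% held the motif on either strand. The *Hes5* window was rich in GC (71.6%) and had 32 CpG dinucleotides, the printed *Pax6* window had 60.8% GC and 15 CpG, and the medians over all windows were 52.4% and 6.

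On GRCm38, the build of the count data, the genes lie at chr3:34650405-34652461 (*Sox2*), chr11:112782224-112787760 (*Sox9*), chr2:105668900-105697364 (*Pax6*), chr16:30064384-30067796 (*Hes1*), chr4:154960923-154962371 (*Hes5*), chr10:57784881-57788450 (*Fabp7*), chr5:43993620-44102032 (*Prom1*), chr5:115429599-115455698 (*Msi1*) and chr2:26457903-26516663 (*Notch1*). *Prom1* and *Notch1* are on the minus strand. Transcripts of other genes overlap *Sox2* (*Sox2ot*, same strand), *Prom1* (*Gm42716*, same strand, and *Gm16401*, other strand), *Msi1* (*4930430O22Rik*, other strand), *Hes5*, *Pax6* (*Pax6os1*, other strand) and *Notch1* (*Mir6996*, same strand, and *0610009E02Rik* and *Gm13568*, other strand), and the counting rule for shared reads is not given in the sources used here.

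*Fabp7* and *Sox2* were the most abundant of the 9 transcripts, and *Hes5* was close to the limit of detection. Levels of different genes were compared as RPKM, reads normalized by the counted length of the gene and by the depth of the library. The mean over the 24 libraries was 445.5 RPKM for *Fabp7* and 111 RPKM for *Sox2*, above 99.8% and 98.4% of the 22436 genes with a mean of at least 1 count. It was 40.4 RPKM for *Sox9*, 17.9 RPKM for *Notch1*, 16.7 RPKM for *Hes1*, 16.4 RPKM for *Msi1* and 8.34 RPKM for *Prom1*. *Pax6*, at 2.74 RPKM, lay above 54.9% of genes. *Hes5*, at 0.165 RPKM, had 1 to 12 counts per library.

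**Figure D1:**
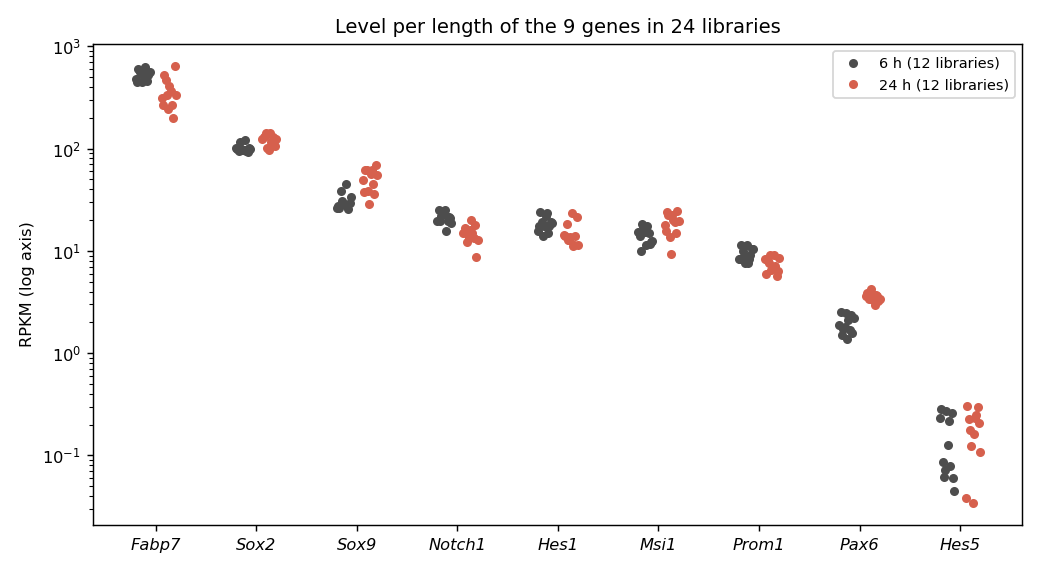
Level of each gene in RPKM on a log axis, with one point per library and the 12 libraries of each harvest time side by side. *Fabp7* is the highest gene and *Hes5* the lowest in all 24 libraries, whereas the points of *Notch1*, *Hes1* and *Msi1* overlap.

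This order held in every library for *Fabp7* over *Sox2*, *Sox2* over *Sox9*, *Sox9* over *Notch1*, *Prom1* over *Pax6* and *Pax6* over *Hes5*. *Msi1* was above *Prom1* in 23 of 24 libraries. *Notch1*, *Hes1* and *Msi1* had no fixed order. *Notch1* was above *Hes1* in 10 of 12 libraries at 6 h and in 8 of 12 at 24 h, while *Hes1* was above *Msi1* in 10 of 12 libraries at 6 h and in 2 of 12 at 24 h. The mean of *Msi1* was 14.2 RPKM at 6 h and 18.6 RPKM at 24 h, that of *Hes1* 18.6 and 14.9 RPKM, and the ranges of these genes overlapped at both times. Among the Notch targets, *Hes1* stood behind *Hey1* (30.6 RPKM), and *Hes5* and *Heyl* (0.0625 RPKM) were the lowest. Among the 4 receptors, *Notch2* (14.0 RPKM), *Notch3* (11.4 RPKM) and *Notch4* (0.899 RPKM) had lower means than *Notch1* over all libraries. *Notch1* was above *Notch2* in 12 of 12 libraries at 6 h (means of 21.2 and 12.8 RPKM) and in 5 of 12 at 24 h (14.6 and 15.2 RPKM). Of the ligands, *Jag1* (12.5 RPKM) was far above *Jag2* (0.789 RPKM), *Dll1* (0.397 RPKM), *Dll3* (0.0911 RPKM) and *Dll4* (0.0343 RPKM).

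No difference between doses was called for the 8 genes that passed the filter on low counts, which *Hes5* did not. In the 6 comparisons between doses (each dose with mock-irradiated cells and 2 Gy with 0.1 Gy, at 6 h and at 24 h), 0 of 48 tests of these 8 genes passed in edgeR (quasi-likelihood test, p-values adjusted over all genes by the Benjamini-Hochberg method, adjusted p under 0.05), and none had an unadjusted p under 0.05. DESeq2's Wald test called 0 of the 9 genes in each of the 6 comparisons. Across all genes, edgeR also called 0% of 15892 to 16278 genes in each of these comparisons, with 24 to 570 genes at an unadjusted p under 0.05, and DESeq2 called at most 93. The fitted log2 fold changes of the 8 genes lay between -0.28 and 0.28, and in none of the 6 comparisons were all libraries of one dose above or below those of the other for any of the 8. The shares of all genes with such groups were 0.15% higher and 0.206% lower for 0.1 Gy at 6 h, 0.556% and 0.55% for 0.1 Gy at 24 h, 0.506% and 0.688% for 2 Gy at 6 h, 1.11% and 1.81% for 2 Gy at 24 h, and between 2 Gy and 0.1 Gy 0.295% and 0.412% at 6 h and 0.256% and 0.994% at 24 h.

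With the replicate number as a block, which takes out the differences between numbers, more genes were called at 24 h, but again none of these 8. For 0.1 Gy at 24 h, 6.84% of all genes were called and 0 of 8, and for 2 Gy at 24 h 13.2% of all genes and 0 of 8. At 6 h, 0% of all genes were called for either dose, and between 2 Gy and 0.1 Gy 0.0553% at 6 h and 0% at 24 h. Of the 48 blocked tests, 4 had an unadjusted p under 0.05, and the lowest adjusted p was 0.0719, for *Msi1* at 0.1 Gy and 24 h. These 4 were *Msi1* at 0.1 Gy and 24 h (0.34, interval from 0.11 to 0.58), at 2 Gy and 24 h (0.33, from 0.04 to 0.61) and at 2 Gy and 6 h (-0.25, from -0.48 to -0.01), and *Sox9* at 0.1 Gy and 6 h (-0.17, from -0.31 to -0.02). In same-numbered pairs, *Msi1* was higher in 4 of 4 at 0.1 Gy and 24 h, *Sox9* lower in 4 of 4 at 0.1 Gy and 6 h, and *Prom1* lower in 4 of 4 at 2 Gy and 24 h, as was *Hes1* at 2 Gy against 0.1 Gy at 6 h. These were the only such cases among the 48 of the 8 genes. With 4 pairs, the same direction in all also arises by chance. The share of all genes with such pairs was not computed, so no dose effect is read from them. The blocked calls of the 24 h comparisons depended on the libraries with the number 3. They also depended on the other numbers. The calls over all genes were 1107 at 0.1 Gy and 2100 at 2 Gy, and without the numbers 1, 2, 3 or 4 they were 1176, 21, 3728 and 16 at 0.1 Gy and 143, 69, 5291 and 245 at 2 Gy. Those without the number 3 were 23.2% of all genes at 0.1 Gy and 33.1% at 2 Gy, beside 2 of 8 and 4 of 8 of the genes here. Without the number 3, *Sox2* (log2 fold change 0.32, adjusted p = 0.0231 by edgeR) and *Msi1* (0.43, adjusted p = 0.0172 by edgeR) were called higher at 0.1 Gy and 24 h. At 2 Gy and 24 h, *Sox2* (0.25) and *Msi1* (0.39) were then called higher and *Fabp7* (-0.25) and *Prom1* (-0.21) lower, with adjusted p of 0.00723, 0.00618, 0.00739 and 0.0440 by edgeR.

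**Figure D2:**
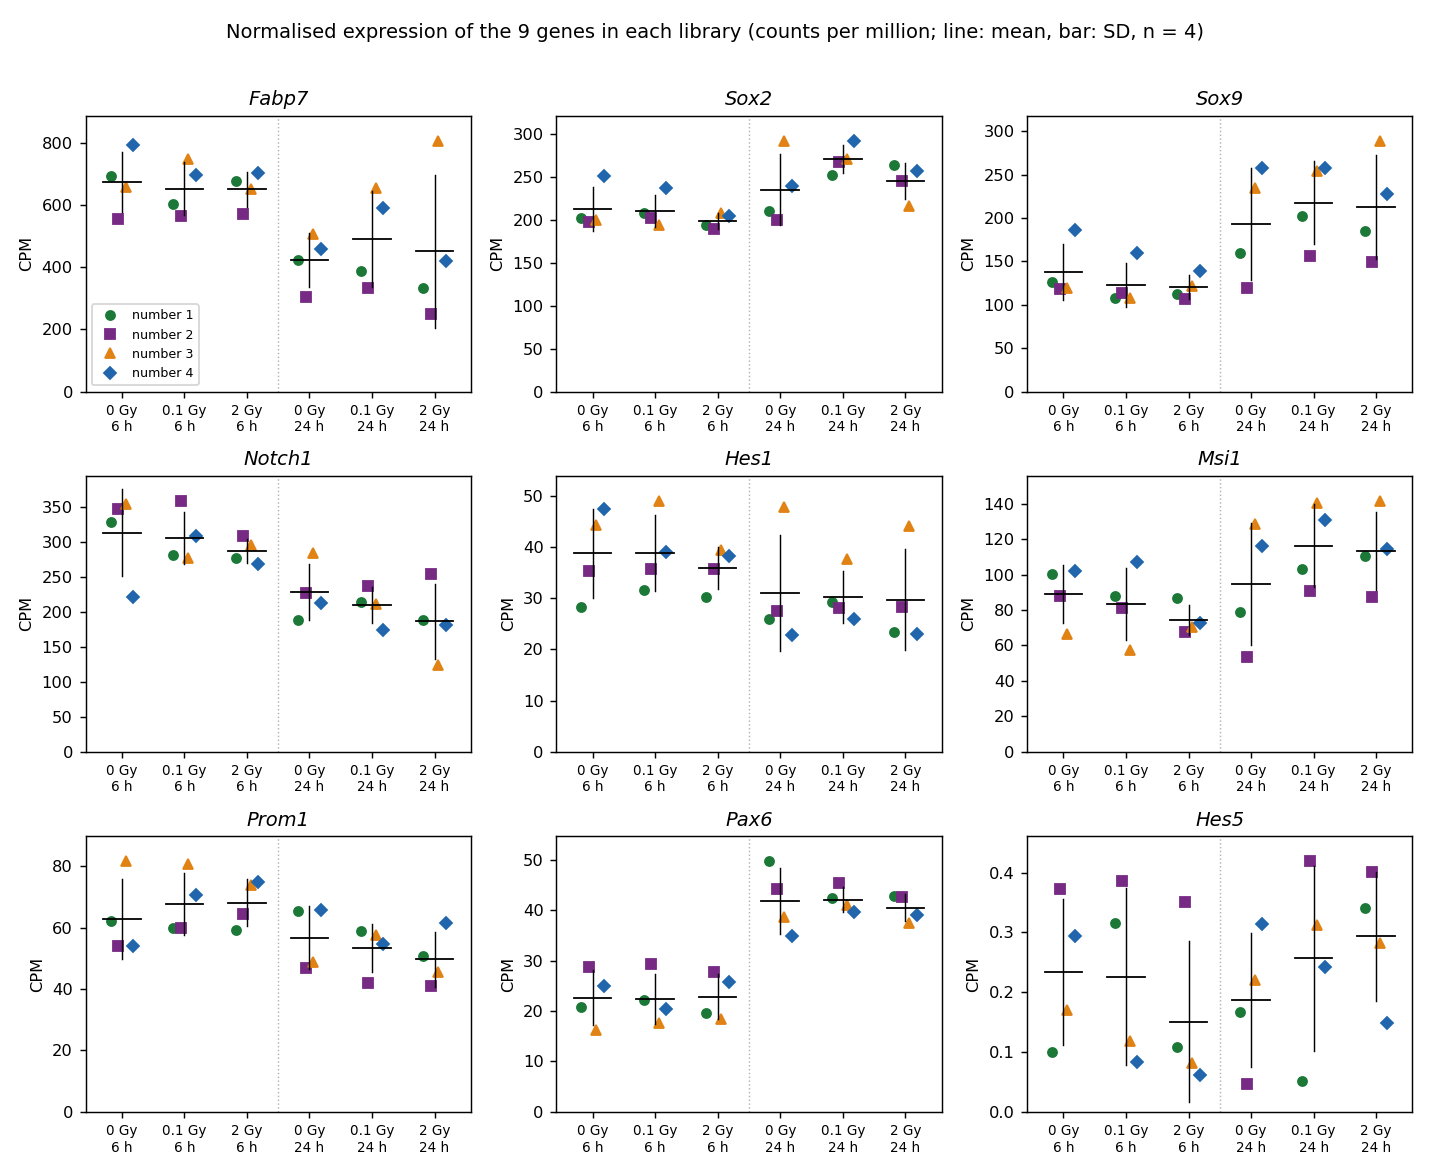
Expression of the 9 genes in CPM in each of the 24 libraries, grouped by dose and time, with the symbol and color giving the replicate number, the horizontal line the mean and the vertical bar the SD (n = 4). The groups of different dose overlap at both times, *Pax6* is higher in all 24 h libraries than in all 6 h libraries, and number 2 is the lowest library for *Fabp7* in all 6 groups.

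*Msi1* and *Notch1* had the fitted differences between doses farthest from 0, and those of *Msi1* against mock-irradiated cells had opposite signs at the 2 times. At 6 h, *Msi1* had 100, 87.8, 66.6 and 102 CPM at 0 Gy (numbers 1 to 4) and 86.7, 67.7, 70.6 and 72.8 CPM at 2 Gy. The fitted log2 fold change was -0.26 ± 0.15 (SE) with a 95% interval from -0.61 to 0.09. At 24 h, *Msi1* had 79.0, 53.6, 129 and 116 CPM at 0 Gy and 111, 87.3, 141 and 114 CPM at 2 Gy. The groups overlapped at both times, and the log2 fold change at 24 h was 0.27 ± 0.27 (SE), with an interval from -0.33 to 0.87. At 0.1 Gy and 24 h it was 0.28 ± 0.27 (SE). Whether the effect of 2 Gy on *Msi1* differed between the times was tested as an interaction. Its log2 value was 0.53 with an adjusted p of 0.819, and with the block 0.58 with an adjusted p of 0.0577, both by edgeR's quasi-likelihood test. For none of the 8 genes was the interaction called, against 0% of all genes without and 6.78% with the block. Without the number 3, the blocked interaction was called for *Msi1* (0.76, adjusted p = 0.00974 by edgeR) and *Sox2* (0.41, adjusted p = 0.0296 by edgeR), 2 of 8 where 23.4% of all genes were called. Without the number 1, 2 or 4 it was called for 0 of 8, where 0%, 0% and 0.814% of all genes were called.

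*Notch1* showed the lowest fitted value of all dose comparisons at 2 Gy and 24 h. It had 189, 227, 284 and 213 CPM at 0 Gy and 189, 255, 123 and 181 CPM at 2 Gy. Only the number 3 stood clearly lower after irradiation, and the number 2 was higher. With these values, the log2 fold change was -0.28 ± 0.23 (SE), with an interval from -0.80 to 0.25.

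For the remaining genes the intervals give the size of change that the 8 libraries of a comparison leave possible. At 2 Gy and 24 h, the 95% interval of the log2 fold change reached from -0.41 to 0.32 for *Pax6*, from -0.29 to 0.43 for *Sox2*, from -0.61 to 0.23 for *Prom1*, from -0.71 to 0.59 for *Hes1*, from -0.47 to 0.76 for *Sox9* and from -0.67 to 0.85 for *Fabp7*. With the block, the interval of *Pax6* narrowed to -0.24 to 0.18 and that of *Hes1* to -0.25 to 0.15. *Hes5* had 17 to 32 counts in all 4 libraries of a group together, and fitted by edgeR without the filter it had log2 fold changes between doses from -0.58 to 0.64. The interval at 2 Gy and 24 h reached from -0.68 to 1.96, so that only large differences of *Hes5* were detectable at this depth.

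Markers of cycling cells differed by dose at the same time point. The summed level of 10 proliferation markers at 24 h was 539 to 662 CPM at 0 Gy, 447 to 500 CPM at 0.1 Gy and 267 to 314 CPM at 2 Gy, without overlap. In the unblocked fit of 2 Gy by edgeR 0 of these 10 markers were called (10 at an unadjusted p under 0.05, and 3 called by DESeq2), with a median log2 fold change of -0.81. In the blocked fit 10 of 10 were called lower, where 6.69% of all genes were. At 0.1 Gy edgeR called 0 of 10 without the block and 4 of 10 lower with it, where 6.84% of all genes were called. With the block, 2 of 11 astrocyte markers were called higher and 0 lower at 2 Gy, and 1 of 10 microglia markers each way. At 0.1 Gy, 2 of 9 oligodendrocyte lineage markers were called higher and 0 lower. The part of these markers in the values of the 9 genes was not tested. Beside this, *Pax6* had 49.7, 44.3, 38.7 and 34.8 CPM at 0 Gy and 42.8, 42.6, 37.5 and 39.1 CPM at 2 Gy. The log2 fold change of *Pax6* was -0.04 ± 0.16 (SE).

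**Figure D3:**
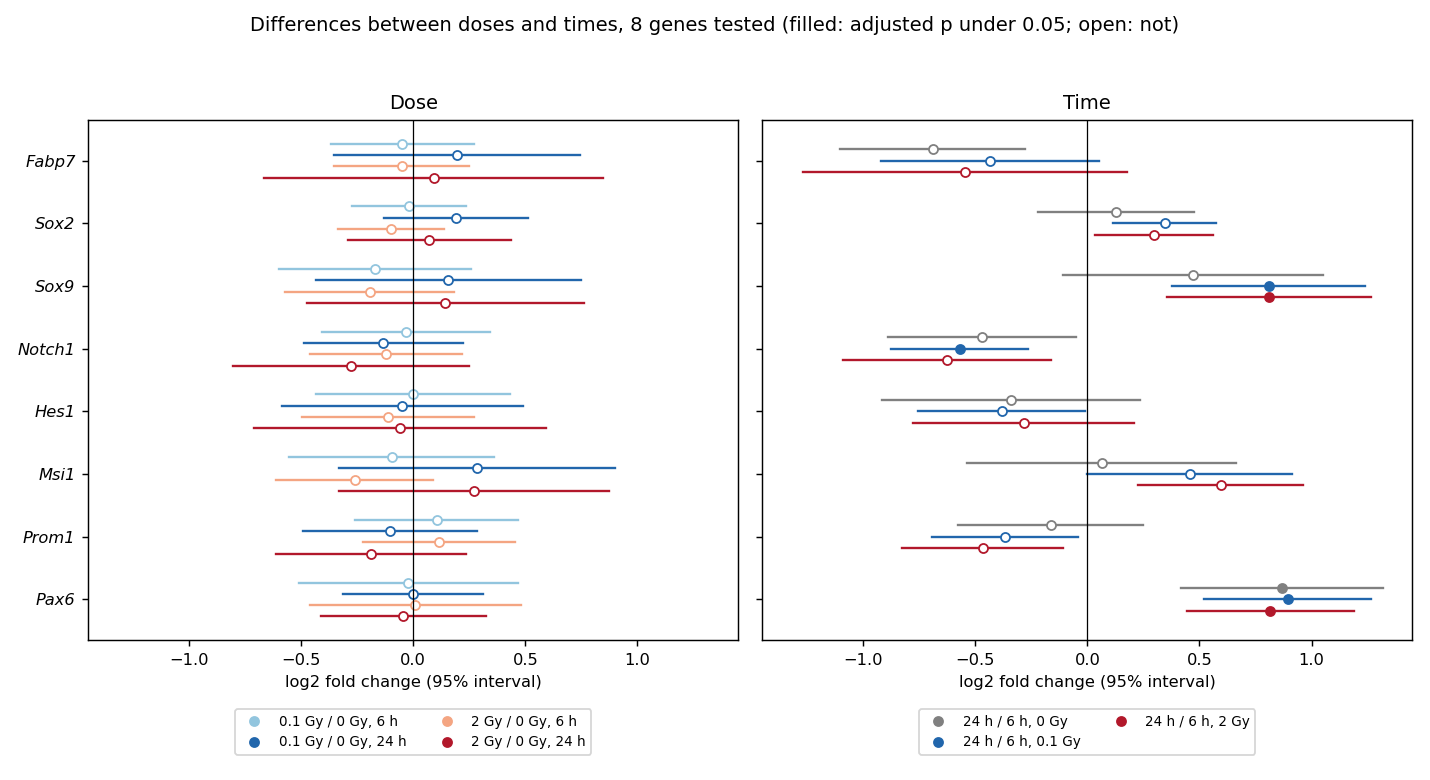
Fitted log2 fold changes of the 8 genes tested with their 95% intervals, for dose against mock-irradiated cells on the left and for 24 h against 6 h on the right. All intervals between doses include 0, whereas the intervals of *Pax6* between times lie above 0 at each dose and those of *Notch1* below 0.

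The harvest times differed more than the doses. *Pax6* was higher at 24 h than at 6 h at each dose, *Sox9* was higher at 0.1 and 2 Gy, and *Notch1* was lower at 0.1 Gy. Cells at 24 h had been in culture for longer, with or without irradiation. As libraries of one number and time deviated together at all doses, the 3 comparisons of the times are not independent of each other. Without the block, 1 of 8 genes was called at 0 Gy, where 6.7% of all genes were called, 3 of 8 at 0.1 Gy (9.9% of all genes) and 2 of 8 at 2 Gy (6.95% of all genes). Of all genes called, 48.4%, 46.2% and 43.5% were higher at 24 h, and 48.3%, 61.3% and 55.8% when libraries were scaled by their totals alone. The number of genes called rested on single libraries. It was 1064 at 0 Gy and 170 without the number 1 at 6 h and 2999 without the number 3 at 24 h, 1609 at 0.1 Gy and 534 without the number 1 at 6 h and 1890 without the number 2 at 24 h, and 1112 at 2 Gy and 220 without the number 3 at 6 h and 1855 without the number 3 at 24 h, the lowest and highest counts of these fits.

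*Pax6*, the paired box factor of cortical radial glia, separated the times completely. At 0 Gy it had 20.8, 28.8, 16.2 and 24.9 CPM at 6 h and 49.7, 44.3, 38.7 and 34.8 CPM at 24 h. At 0.1 Gy it had 22.2, 29.3, 17.6 and 20.3 CPM at 6 h and 42.5, 45.4, 41.0 and 39.6 CPM at 24 h. At 2 Gy it had 19.6, 27.7, 18.4 and 25.7 CPM at 6 h and 42.8, 42.6, 37.5 and 39.1 CPM at 24 h. The highest library at 6 h (29.3 CPM) was below the lowest at 24 h (34.8 CPM). The share of all genes with such a separation over the 12 libraries of each time was not computed. Same-numbered libraries of a time deviated together, so these 12 are not independent. The log2 fold change was 0.87 ± 0.20 (SE) at 0 Gy, 0.89 ± 0.16 at 0.1 Gy and 0.82 ± 0.17 at 2 Gy, or 1.83-, 1.86- and 1.76-fold. The adjusted p was 0.0360, 0.0140 and 0.0245 by edgeR. With the correction for GC content and length, the call at 0 Gy was lost (0.73, adjusted p = 0.0516). With each library left out in turn, *Pax6* was still called in 8 of 8 fits at 0.1 Gy, in 4 of 8 at 2 Gy and in 2 of 8 at 0 Gy. At 2 Gy the call was lost without the number 1 or 3 at 6 h (adjusted p = 0.0859 and 0.0785) and without the number 1 or 4 at 24 h (0.0728 and 0.0645), all by edgeR, and the log2 fold change stayed between 0.75 and 0.94. At 0 Gy it was kept without the number 2 at 6 h or the number 3 at 24 h alone, and it stayed between 0.73 and 1.02. Reads of *Pax6* and of *Pax6os1* cannot be told apart if the counting ignored strand.

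*Sox9*, a transcription factor of gliogenesis, was higher at 24 h in 4 of 4 same-numbered pairs of libraries at 0.1 Gy and in 4 of 4 at 2 Gy. At 0 Gy it had 126, 119, 120 and 186 CPM at 6 h and 160, 120, 235 and 257 CPM at 24 h. At 0.1 Gy it had 107, 114, 108 and 160 CPM at 6 h and 202, 157, 254 and 257 CPM at 24 h. At 2 Gy it had 113, 107, 122 and 139 CPM at 6 h and 185, 149, 289 and 228 CPM at 24 h. The groups overlapped at 0 and 0.1 Gy and did not at 2 Gy. The log2 fold change was 0.47 ± 0.26 (SE) at 0 Gy (adjusted p = 0.295 by edgeR), 0.81 ± 0.19 at 0.1 Gy (adjusted p = 0.0311) and 0.81 ± 0.20 at 2 Gy (adjusted p = 0.0461). Without the filter on low counts, the call of *Sox9* at 2 Gy was lost (adjusted p = 0.0600). Of the 8 fits that each leave out one library, 2 kept the call at 0.1 Gy (without number 4 at 6 h or number 2 at 24 h) and 2 at 2 Gy (without number 2 or 3 at 24 h), and the log2 fold change lay between 0.64 and 0.96. In both comparisons the adjusted p rose to at most 0.132. That *Sox9* changed more at 2 Gy than at 0 Gy was not shown, since the interaction was 0.34 with an adjusted p of 0.845 by edgeR.

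*Notch1* went the other way. At 0 Gy it had 329, 347, 355 and 221 CPM at 6 h and 189, 227, 284 and 213 CPM at 24 h. At 0.1 Gy it had 282, 359, 277 and 309 CPM at 6 h and 215, 237, 211 and 175 CPM at 24 h. At 2 Gy it had 278, 308, 295 and 268 CPM at 6 h and 189, 255, 123 and 181 CPM at 24 h. The receptor was lower at 24 h in all same-numbered pairs at 0.1 and 2 Gy, and the groups did not overlap at 0.1 and 2 Gy. The log2 fold change was -0.47 ± 0.19 (SE) at 0 Gy (adjusted p = 0.158 by edgeR), -0.57 ± 0.14 at 0.1 Gy (adjusted p = 0.0324) and -0.63 ± 0.21 at 2 Gy (adjusted p = 0.104). The call at 0.1 Gy was kept in 1 of 8 fits that each leave out one library, that without the number 2 at 24 h, with log2 fold changes from -0.64 to -0.46 and adjusted p up to 0.0935, and it was also lost when libraries were scaled by their totals alone (-0.48, adjusted p = 0.0554 by edgeR). At 2 Gy, *Notch1* was called lower in 1 of 8 such fits and with the block (-0.67).

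*Fabp7* was lower at 24 h in the fitted values at each dose, without a call by edgeR with all 8 libraries and no block or correction. At 0 Gy it had 692, 556, 656 and 792 CPM at 6 h and 422, 305, 506 and 458 CPM at 24 h. At 0.1 Gy it had 603, 563, 747 and 696 CPM at 6 h and 386, 332, 654 and 589 CPM at 24 h. At 2 Gy it had 677, 571, 652 and 702 CPM at 6 h and 332, 248, 805 and 419 CPM at 24 h. The groups did not overlap at 0 Gy, where the log2 fold change was -0.69 ± 0.18 (SE, adjusted p = 0.0556 by edgeR). DESeq2 (-0.67, adjusted p = 0.0202) and edgeR with a correction for GC content and length (-0.76, adjusted p = 0.0362) called *Fabp7* lower at 0 Gy, as did edgeR without the number 3 at 24 h (-0.78, adjusted p = 0.0264). They overlapped at 0.1 Gy (-0.44 ± 0.22) and at 2 Gy (-0.54 ± 0.32), where the number 3 at 24 h was above all libraries at 6 h. Without that library, the log2 fold change at 2 Gy was -0.97 with an adjusted p of 0.0201 by edgeR.

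The other 4 genes tested had no call by edgeR between the times with all 8 libraries, TMM scaling and no block or correction. *Sox2* ranged from 189 to 252 CPM at 6 h and from 200 to 292 CPM at 24 h, over 12 libraries each. Its log2 fold change was 0.13 at 0 Gy, 0.34 at 0.1 Gy and 0.30 at 2 Gy, and the groups did not overlap at 0.1 and 2 Gy. *Sox2* was called higher at 0.1 Gy by DESeq2 (adjusted p = 0.0343) and by edgeR when libraries were scaled by their totals alone (0.44, adjusted p = 0.0464). *Prom1* ranged from 54.0 to 81.7 CPM at 6 h and from 40.9 to 65.9 CPM at 24 h, with log2 fold changes of -0.16, -0.37 and -0.47, and its groups did not overlap at 0.1 Gy. *Msi1* had log2 fold changes of 0.06, 0.46 and 0.59, the last with an adjusted p of 0.0608 by edgeR and groups that did not overlap. DESeq2 called *Msi1* higher at 2 Gy (adjusted p = 0.0221). *Hes1*, the most abundant of the Hes genes, had log2 fold changes of -0.34, -0.38 and -0.28, and its groups overlapped at each dose. *Hes5* had between 0.0611 and 0.386 CPM at 6 h and between 0.0466 and 0.419 CPM at 24 h and did not pass the filter. Fitted by edgeR without the filter, its log2 fold changes were -0.33 ± 0.63 (SE), 0.22 ± 0.62 and 0.85 ± 0.63, with adjusted p of 0.821, 0.885 and 0.585.

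Counting groups without overlap, 1 of the 8 genes was higher and 1 lower at 24 h at 0 Gy, 2 higher and 2 lower at 0.1 Gy, and 4 higher and 1 lower at 2 Gy. The corresponding shares of all genes were 7.4% higher and 7.98% lower at 0 Gy, 8.88% and 9.91% at 0.1 Gy, and 8.5% and 9.65% at 2 Gy. The median log2 fold change of the 8 genes was -0.05 at 0 Gy, -0.01 at 0.1 Gy and 0.01 at 2 Gy, against -0.02, -0.01 and -0.0022 over all genes, since as many of the 8 had positive as negative values.

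With the block, which treats same-numbered libraries of 6 h and 24 h as pairs, calls became more frequent. Whether these libraries shared a culture is not known. At 0.1 Gy, 7 of 8 genes were called in the blocked fit, against 25.7% of all genes. These were *Pax6* (0.92, adjusted p = 0.000759), *Sox9* (0.80, adjusted p = 0.00197) and *Sox2* (0.35, adjusted p = 0.0263) as higher, and *Notch1* (-0.57, adjusted p = 0.00468), *Fabp7* (-0.48, adjusted p = 0.0156), *Hes1* (-0.38, adjusted p = 0.0413) and *Prom1* (-0.37, adjusted p = 0.0457) as lower, all by edgeR. At 2 Gy, 5 of 8 were called, against 19.2% of all genes: *Pax6* (0.83), *Sox9* (0.78) and *Msi1* (0.58) as higher and *Notch1* (-0.67) and *Prom1* (-0.48) as lower, with adjusted p of 0.00623, 0.00910, 0.0259, 0.0261 and 0.0432 by edgeR. When each number was left out of the blocked fit in turn, 3 to 6 of 8 genes were called at 0.1 Gy and 1 to 8 of 8 at 2 Gy, with 13.4% to 23.6% and 5.5% to 30.1% of all genes. *Pax6* was called in all of these fits at both doses. At 2 Gy, the 8 calls were those without the number 3, and the single call that without the number 4.

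Markers of other cells were compared at the same 2 times. The sum of the 12 astrocyte markers had a range of 2774 to 3539 CPM at 6 h and of 2567 to 3487 CPM at 24 h at 0 Gy, and 0 of the 11 tested were called by edgeR at each dose (1 at an unadjusted p under 0.05 at each dose, at most 1 called by DESeq2). Of the 10 microglia markers and the 8 fibroblast and vessel markers tested, edgeR and DESeq2 called 0 at each dose, with 0 and at most 1 at an unadjusted p under 0.05 by edgeR. The fibroblast and vessel markers had median log2 fold changes from -0.42 to -0.31. Of the 9 oligodendrocyte lineage markers tested, 0 were called at each dose by edgeR (1 at an unadjusted p under 0.05 and 1 by DESeq2 at each dose). Of the neuron markers, *Gad1*, an enzyme of GABA synthesis, was lower at 0.1 Gy (-1.69) and 2 Gy (-1.56) and *Syt1*, a synaptic vesicle protein, higher at 0.1 Gy (0.88), 2 of 7 and 1 of 6 tested. With the block, some of these markers were called at 0.1 and 2 Gy. They were *Gja1*, a gap junction protein of astrocytes (-0.52 and -0.51), *Dcn*, a proteoglycan of the matrix (-0.79 and -1.47), *Cdh5*, a cadherin of the vessel wall (-0.89 and -1.22), *Gad2* (-1.76 and -2.14) and *Cspg4*, a marker of oligodendrocyte precursors (-1.52 and -1.69), as lower, and the oligodendrocyte lineage factors *Olig1* (0.80 and 0.79) and *Olig2* (0.63 and 0.62) as higher, and the leukocyte marker *Ptprc* as lower at 0.1 Gy (-0.55). *Gad1* and *Syt1* were called at both doses. The part of all these markers in the values of the 9 genes was not tested. Proliferation markers were called lower at 24 h in 0 of 10 at 0 Gy, 2 of 10 at 0.1 Gy and 6 of 10 at 2 Gy, and with the block in 5 of 10 at 0.1 Gy and 8 of 10 at 2 Gy.

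The spread of each gene over the 24 libraries was divided into shares of the sum of squares of log2 CPM. For *Pax6*, 81.0% of the spread went with time, 16.1% with the replicate number within a time, 0.00678% with dose and 2.73% remained. Time took 55.3% for *Notch1*, 54.1% for *Sox9*, 45.8% for *Sox2*, 42.8% for *Fabp7*, 35.5% for *Prom1*, 25.5% for *Hes1* and 23.4% for *Msi1*. All 8 values were above the median over all genes with a mean of at least 5 CPM, 14.3%. Dose took at most 6.34% (*Sox2*), with a median over all genes of 1.83%. The dose by time share was 10.7% for *Msi1* and at most 6.07% for the other genes.

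**Figure D4:**
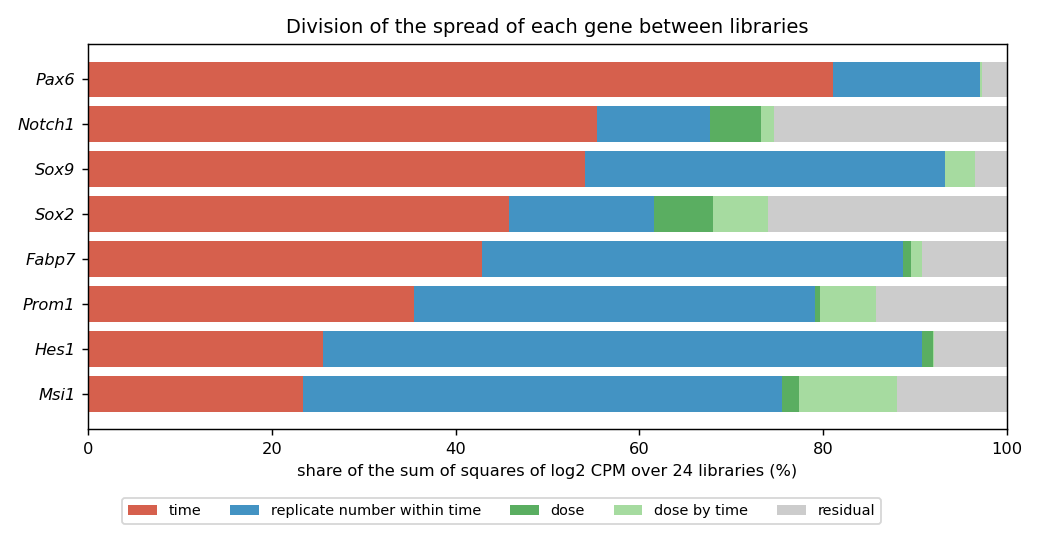
Share of the sum of squares of log2 CPM over the 24 libraries for each of the 8 genes, divided among time, replicate number within time, dose, dose by time and the residual. Time is the largest share for *Pax6*, *Notch1*, *Sox9* and *Sox2*, and the replicate number for *Hes1*, *Msi1*, *Fabp7* and *Prom1*.

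The replicate number took 65.3% of the spread of *Hes1*, 52.1% for *Msi1*, 45.8% for *Fabp7*, 43.6% for *Prom1*, 39.2% for *Sox9*, 16.1% for *Pax6*, 15.8% for *Sox2* and 12.4% for *Notch1*, against a median over all genes of 52.4%. The number 2, whose libraries had the low microglia markers, was the lowest of its group for *Fabp7* in 6 of 6 groups and for *Sox9* in 5 of 6. It was the highest for *Pax6* and for *Notch1* in 4 of 6 groups each. The part of the microglia markers in these values was not tested. The number 3 was the highest for *Hes1* in 5 of 6 groups and the lowest for *Pax6* in 4 of 6, and the number 4 was the highest for *Sox9* in 5 of 6. Over the 3 doses, the mean of *Sox9* at 24 h was 182, 142, 259 and 247 CPM for the numbers 1 to 4, and that of *Fabp7* 380, 295, 655 and 489 CPM. These means differed by up to 1.83-fold between numbers for *Sox9* and 2.22-fold for *Fabp7*.

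The genes whose pattern over the 24 libraries was most like that of each of the 9 were sought among 11624 genes with a mean of at least 5 CPM, by Pearson's r of log2 CPM. Same-numbered libraries resembled each other and many genes differ between the times, so the values are descriptions and no p is given. For *Pax6* they were *Zcchc24* (r = 0.963), *Atp7b* (0.960) and *Sobp* (0.955). For *Sox9* they were *Tspan33* (r = 0.963), *Smim1* (0.960) and *Id4* (0.959), for *Fabp7* *Bambi* (r = 0.946), *Pdpn* (0.934) and *Dhrs11* (0.927), and for *Notch1* *Bicd2* (r = 0.942), *Nav2* (0.939) and *Mical3* (0.926). For *Msi1* they were *Myh14* (r = 0.952), *Foxo4* (0.936) and *Tecpr1* (0.934). The nearest genes were *Zfp740* (r = 0.926), *Xkr8* (0.886) and *Crb2* (0.885) for *Sox2*, *Myof* (r = 0.918), *Atp6ap2* (0.884) and *Ppp2r3a* (0.884) for *Prom1*, and *Actn4* (r = 0.888), *Kars* (0.883) and *Cdk4* (0.875) for *Hes1*. *Hes5* was below the minimum. None of these genes is one of the 9.

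The rest of the Notch pathway was examined at the levels of ligand, receptor, processing and target. Between the times, the ligand *Jag1* had lower values at 24 h, like *Notch1*. It ranged from 60.9 to 128 CPM at 6 h and from 31.9 to 63.1 CPM at 24 h at 0 Gy, from 85.7 to 125 CPM and from 31.9 to 65.0 CPM at 0.1 Gy, and from 85.5 to 122 CPM and from 19.4 to 70.6 CPM at 2 Gy. The groups overlapped at 0 Gy alone. *Jag1* had a log2 fold change of -1.15 at 0 Gy (adjusted p = 0.0360 by edgeR) and -1.25 at 0.1 Gy (adjusted p = 0.0146), and it was -1.29 at 2 Gy, where the adjusted p was 0.0560 without and 0.00315 with the block. *Jag1* was 1 of the 3 ligands tested, and neither *Jag2* nor *Dll1* was called. Of the 4 receptors, *Notch1* alone was called, at 0.1 Gy, and *Notch2* had log2 fold changes of 0.41, 0.14 and 0.14.

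The Hes and Hey genes did not move together. *Hey2* was lower at 24 h, with a log2 fold change of -1.07 at 0.1 Gy (adjusted p = 0.0250), and at 2 Gy, where it ranged from 7.93 to 14.6 CPM at 6 h and from 4.14 to 6.91 CPM at 24 h (adjusted p = 0.0475). *Hey1* was higher, with log2 fold changes of 0.50 (adjusted p = 0.0270) and 0.61 (adjusted p = 0.0318), all by edgeR. *Hes6*, a Hes protein that counteracts Hes1, was higher at 0.1 Gy (0.74, adjusted p = 0.0397 by edgeR), and with the block at 2 Gy too (0.82, adjusted p = 0.0426). At 0 Gy 0 of the 5 genes tested of the target list, in which *Hes6* was counted, were called by edgeR and by DESeq2 (2 at an unadjusted p under 0.05 by edgeR). There *Hey1* had 0.37, *Hey2* -0.68 and *Hes6* -0.17. Of the 18 genes of Notch processing and regulation, 1 was called, *Mib2*, a ubiquitin ligase that activates ligands (0.92 at 2 Gy, adjusted p = 0.0438 by edgeR), where 6.95% of all genes were called. With the block, 4 of 18 were called at 0.1 Gy and 3 of 18 at 2 Gy, against 25.7% and 19.2% of all genes. *Lfng* (0.66 and 0.70), a sugar transferase that modifies the receptor, and *Dtx1* (0.57 and 0.72) were called higher at 0.1 and 2 Gy, *Mib2* at both (0.74 and 0.87), and *Rfng* at 0.1 Gy (0.53). The nuclear partners *Rbpj*, *Maml1*, *Maml2* and *Maml3* gave 0 calls at each dose by edgeR, with or without the block, and by DESeq2, with at most 1 at an unadjusted p under 0.05 by edgeR.

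**Figure D5:**
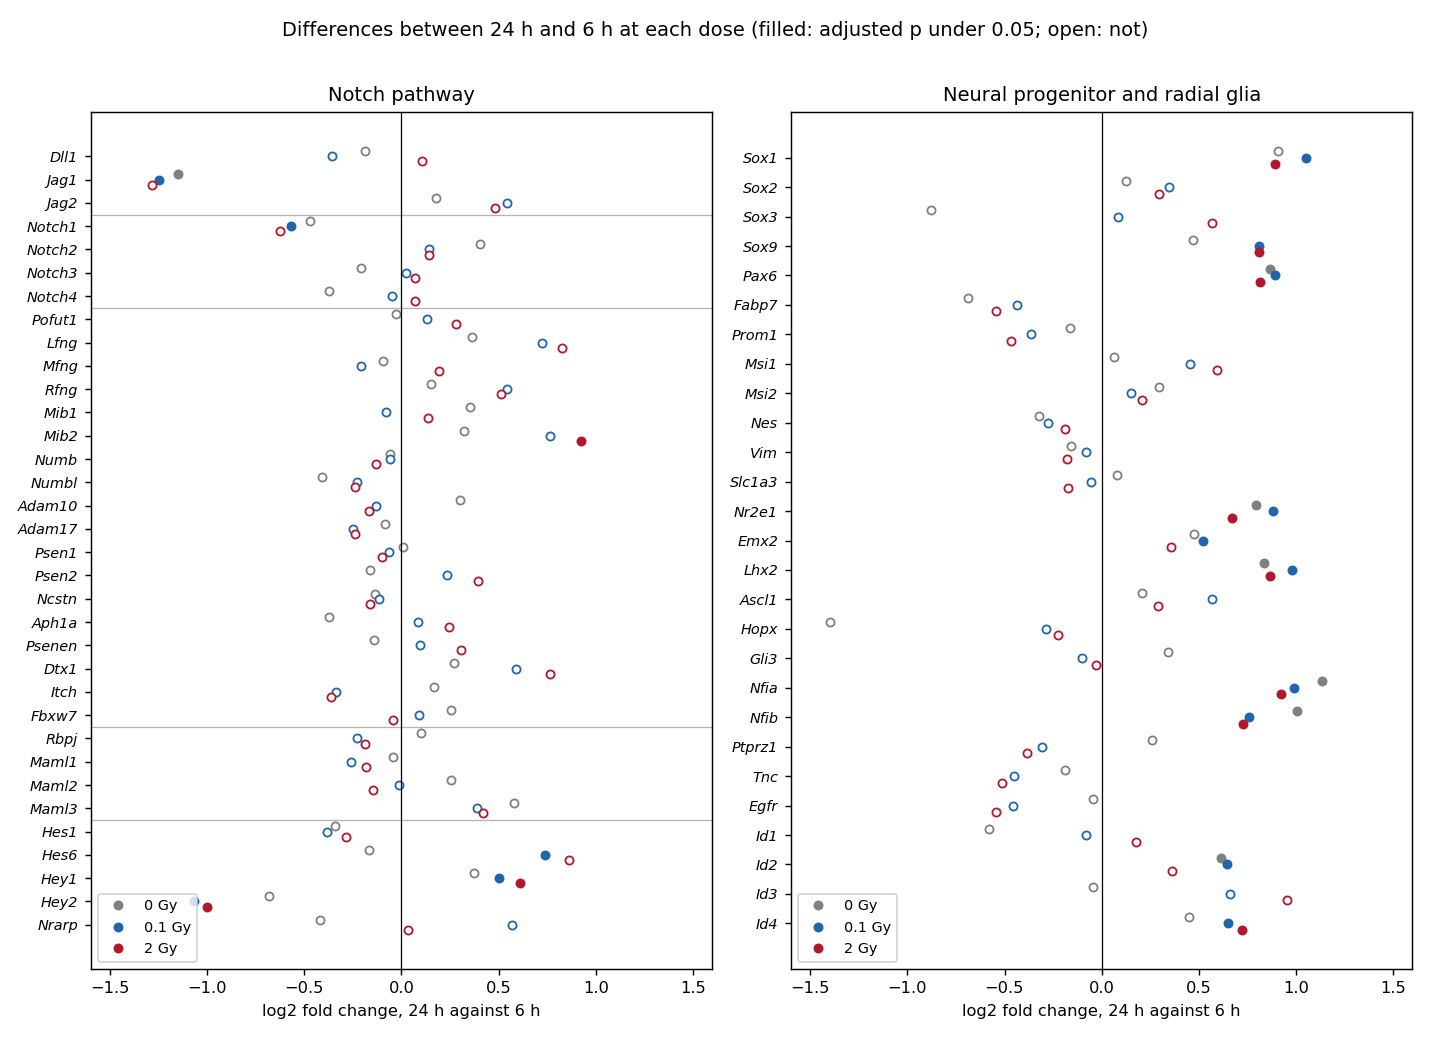
Log2 fold changes between 24 h and 6 h of the tested Notch pathway genes on the left, with lines between ligands, receptors, processing genes, nuclear complex and targets, and of the neural progenitor and radial glia list on the right, at each of the 3 doses. *Jag1* lies below -1 at each dose, *Hey1* and *Hey2* lie on opposite sides of 0, and *Lhx2*, *Nfia*, *Nfib*, *Nr2e1* and *Pax6* are called higher at all 3 doses.

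In the list of 27 neural progenitor and radial glia genes, to which 6 of the 9 belong, calls between the times by edgeR with all 8 libraries and no block or correction were all in the direction of *Pax6*. At 24 h, 6 of 27 were called higher at 0 Gy (3.24% of all genes), 10 of 27 at 0.1 Gy (4.57% of all genes) and 8 of 27 at 2 Gy (3.02% of all genes), and 0 were called lower by edgeR at each dose (3.46%, 5.33% and 3.92% of all genes). At an unadjusted p under 0.05, 2, 1 and 1 were lower, and DESeq2 called 2 lower at 0 Gy, *Fabp7* and *Hopx*, and 0 at 0.1 and 2 Gy. With the block, 13 and 10 were called higher at 0.1 and 2 Gy, against 11.8% and 8.82% of all genes, and 4 and 2 lower, against 14% and 10.4%, *Fabp7*, *Prom1*, *Tnc* and *Egfr* at 0.1 Gy and *Prom1* and *Egfr* at 2 Gy. The median log2 fold change of the list was 0.21, 0.34 and 0.30. As the list was written with earlier results of these data known and shares 6 genes with the 9, the counts describe it and are no independent evidence.

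Transcriptional regulators made up the genes called higher without the block. *Nfia* and *Nfib*, nuclear factors of gliogenesis, had log2 fold changes of 1.13 and 1.01 at 0 Gy, 0.99 and 0.76 at 0.1 Gy and 0.92 and 0.73 at 2 Gy. *Lhx2*, a LIM homeobox factor of the cortical primordium, had 0.84, 0.98 and 0.87, and *Nr2e1*, a nuclear receptor of neural stem cells, 0.79, 0.88 and 0.67. *Nr2e1* ranged from 38.8 to 58.3 CPM at 6 h and from 74.8 to 98.5 CPM at 24 h over all doses. *Sox1* was called at 0.1 Gy (1.05) and 2 Gy (0.89), *Id4* at 0.1 Gy (0.65) and 2 Gy (0.72), *Id2* at 0 Gy (0.62) and 0.1 Gy (0.65) and *Emx2* at 0.1 Gy (0.52). The most abundant genes of the list did not pass the test. The intermediate filaments *Vim* and *Nes* had log2 fold changes of -0.16 and -0.32 at 0 Gy, -0.08 and -0.27 at 0.1 Gy and -0.18 and -0.19 at 2 Gy.

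Between doses, edgeR without the block and DESeq2 called none of the genes tested (61 of the 65 in edgeR) in the 6 lists of the Notch pathway and of progenitors, with 1 of the 366 tests in the 6 comparisons at an unadjusted p under 0.05 by edgeR. With the block, at 2 Gy and 24 h, *Hes6* (0.75), *Id3* (0.71), *Id1* (0.64), *Mib2* (0.47), *Aph1a* (0.39) and *Psen2* (0.37) were called higher and *Adam10* (-0.36) and *Ptprz1* (-0.40) lower, 8 of the 61 genes of the lists that were tested (13.1%), against 13.2% of all genes (6.53% higher and 6.69% lower). *Id1* and *Id3* encode inhibitors of basic helix-loop-helix factors, *Aph1a* and *Psen2* subunits of the gamma-secretase that releases the active part of Notch, and *Adam10* the protease that cuts the receptor first. Adjusted p of these 8 genes lay between 0.0106 for *Id3* and 0.0462 for *Aph1a* by edgeR. At 0.1 Gy and 24 h, *Hopx* (0.70), *Hes6* (0.69) and *Id3* (0.58) were called higher and *Mib1* (-0.39) and *Gli3* (-0.39) lower with the block, 5 of 61 (8.2%) where 6.84% of all genes were called. The blocked interaction of 2 Gy and time was called for *Hopx* (1.13), *Hes6* (1.03), *Id3* (1.02), *Id1* (0.82), *Psen2* (0.56) and *Ptprz1* (-0.68), 6 of 61 (9.84%) against 6.78% of all genes. Without the number 1 or without the number 2, the blocked interaction was called for 0% of all genes, so these 6 calls were lost. It was called for 23.4% of all genes without the number 3 and for 0.814% without the number 4.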

How the data were processed

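Poly(A) RNA of 24 libraries (6 groups of 4) was sequenced as paired ends. Trimming, mapping and counting were done by a sequencing company, and the authors deposited raw read counts per gene, not normalized, with exon coordinates on GRCm38. The aligner, the counter, tool versions and strandedness are not given in the sources used here. Of 49315 gene identifiers, 48970 were matched to a symbol, and 44858 had the same span in GENCODE M21.

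Counts of the 8 libraries of a comparison were tested with edgeR 4.0.16 in R 4.3.3 (TMM, filterByExpr, quasi-likelihood test, Benjamini-Hochberg over all genes), and genes at an adjusted p under 0.05 were called. The effect of 2 Gy at both times was compared as an interaction over 16 libraries. CPM were scaled by TMM, with a prior count of 2 for log2 values, and RPKM used the counted gene length. The fit was tested on simulated data with 200 changed genes.

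Alternatives were DESeq2 1.42.0, other scalings, no filter, all 24 libraries in one fit, a GC and length correction, each library left out, a minimum log2 fold change of 1, and the replicate number as a block. In the comparisons between doses, deviations of same-numbered libraries from their group means correlated with r of at least 0.539 across genes, and between times with at least 0.255 at 0.1 and 2 Gy, so the numbers were taken to pair libraries there. The pairing was thus chosen from the observed r, comparison by comparison. Whether a number stands for the same culture at both times is not known. No replicates were alike within sampling noise (chi-square per degree of freedom of at least 25.9).

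The 9 genes and all lists were chosen with earlier results of these data known. All 9 were named, of the lists those called with or without the block or the 3 highest per length, and for likeness the 3 genes of highest correlation. The neuron markers with few counts, *Gjb6*, *Slc1a2*, *S100b*, and uncalled genes of the pathway were named after their values were seen. Promoter windows came from RefSeq (GRCm38.p6).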

Additional observations from a re-analysis of the deposited data

Results flagged for a closer look

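In 4 of 54 groups of 4 libraries (9 genes, 6 groups), the highest library stood apart from the other 3, by a gap that, as a share of the range of the group, exceeded the 95% critical value of Dixon for 4 samples. Chance gives this in about 1 in 20 groups. The number 4 was that library for *Sox2* at 0 Gy and 6 h (252 CPM, gap 0.912 of the range), for *Sox9* at 0 Gy and 6 h (186 CPM, 0.893) and for *Sox9* at 0.1 Gy and 6 h (160 CPM, 0.877). The number 2 was that library for *Hes5* at 2 Gy and 6 h (0.351 CPM, 0.837), which rests on 10 counts.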

How the results depend on the processing

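Of 1664 values of the 8 genes under alternatives, 1573 stayed on their side of the threshold, 56 passed it newly, 34 lost it and 1 was reversed. Of those that stayed, 156 that were called in neither fit changed sign. The reversed value was that of *Fabp7* at 2 Gy against 0 Gy and 24 h, -0.25 (adjusted p = 0.00739 by edgeR) with the block and without the number 3, against 0.09. The cause was not tested.

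Between doses, the count of called genes among the 8 was 0 under every alternative except the block without the number 3 (2 at 0.1 Gy and 24 h, 4 at 2 Gy and 24 h, and 2 for the interaction of 2 Gy and time), and 0 to 2, 0 to 4 and 0 to 2 are the ranges when each number was left out. Between times at 0 Gy (1 called), the count was 2 with DESeq2, 4 with the block and GC and length correction together, and 0 to 2 without single libraries. With the GC and length correction alone it was 1, *Fabp7*, while *Pax6* had 0.73 (adjusted p = 0.0516 by edgeR). At 0.1 Gy (3 called) it was 7 with the block, 8 with the block and GC correction, 1 to 3 without single libraries and 3 to 6 with the block without single numbers. At 2 Gy (2 called) it was 5 with the block, 1 without the filter (*Sox9* had an adjusted p of 0.0600), 4 with the GC and length correction, 5 with the block and GC correction, 0 to 5 without single libraries and 1 to 8 with the block without single numbers. With a minimum log2 fold change of 1 it was 0 at all 3 doses.

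The numbers were not taken to pair the libraries between times at 0 Gy. The r of the number 3 was 0.0645 there, and that of the numbers 1, 2 and 4 was 0.409, 0.824 and 0.517. There the block called 2 of 8 genes, *Pax6* (0.89, adjusted p = 0.0106) and *Fabp7* (-0.70, adjusted p = 0.0122 by edgeR), 0 to 4 without single numbers, and 2428 of all genes in place of 1064.

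Counts over all genes moved by more than 1.5 times. Without single libraries they were 170 to 2999 at 0 Gy between times, 534 to 1890 at 0.1 Gy and 220 to 1855 at 2 Gy, and with the block without single numbers 16 to 3728 for 0.1 Gy and 69 to 5291 for 2 Gy against 0 Gy at 24 h, and 0 to 3951 for the interaction. At 0 Gy between times, 1969 were called by DESeq2, 2488 with all 24 libraries in one fit and 4220 with the block and GC correction. At 0.1 Gy 1609 were called, 4181 with the block, 5863 with the block and GC correction and 2535 by DESeq2. At 2 Gy 1112 were called, 3072 with the block, 4595 with the block and GC correction, 2108 by DESeq2, 2543 with all libraries, 1815 with GC correction and 730 without the filter. Between doses, 0 became 2100 with the block and 93 by DESeq2 at 2 Gy and 24 h, 1107 with the block at 0.1 Gy and 24 h, and 1143 with the block and 7 by DESeq2 for the interaction. With the block and GC correction these were 558, 306 and 401, and 115 at 2 Gy and 6 h, where DESeq2 called 1. With all 24 libraries, 108 were called at 2 Gy and 24 h. For 2 Gy against 0.1 Gy, the block called 9 at 6 h, the block and GC correction 103 at 6 h and 104 at 24 h, and at 24 h DESeq2 39 and the fit of all libraries 15. The cause of these changes was not tested. Of the 9 genes, *Hes5* alone did not pass the filter on low counts.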
